A study of Homo sapiens with 12 samples.

Results

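The gene set described here holds 45 genes of epithelial cell junctions and cell polarity, out of 20286 genes with a measurement in HK-2 cells. The members were chosen by name, as a fixed list of symbols, and each symbol matched exactly 1 Ensembl ID in the table. By role, 13 belong to adherens junctions, 9 to desmosomes, 13 to tight junctions and 5 to polarity complexes, and another 5 mark or control the epithelial state. HK-2 is an immortalised line of human proximal tubule epithelium, wild type per the labels and cultured in DMEM with 10% fetal bovine serum. RNA was sequenced after 48 h in cells given recombinant S100A8, recombinant S100A9 or the recombinant pair S100A8/S100A9, and in control cells whose medium held the matching volume of PBS. Each of the 4 groups had 3 libraries. The labels print the dose as 5 mg/mL, a unit that could not be checked, and they give no source or purity for the proteins.

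S100A8 and S100A9 are calcium-binding proteins that myeloid cells release at sites of inflammation, mostly joined as a heterodimer. Epithelial cells are held together by adherens junctions and desmosomes, in which cadherins bind across the gap between cells and catenins or plakins tie them to the cytoskeleton. Tight junctions seal that gap with claudins and occludin, and the Par and Crumbs complexes set the boundary between apical and basolateral membrane. The proximal tubule is a leaky epithelium, and its main classical cadherin is N-cadherin rather than E-cadherin.

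The 12 libraries held 15882193 to 20748334 expected counts and 15483 to 15653 genes above 0. The 45 members took 0.478% to 0.487% of the counts in every library. Epithelial keratins were abundant, with KRT8 at 290 and KRT18 at 172 FPKM (a level scaled to transcript length and library depth) in control cells. The renal transcription factor PAX8 stood at 115 FPKM. Defining markers of the differentiated proximal tubule were near 0, with LRP2 (megalin) at 0.013 and CUBN (cubilin) at 0.05 FPKM in control cells, so the label of proximal tubule rested on PAX8 and on GGT1 (28.1 FPKM). The leukocyte marker PTPRC, the fibroblast genes COL1A2 and DCN and the listed endothelial genes were at or near 0, whereas CD68 (62.7 FPKM) and LUM (33.8 FPKM), which are listed as myeloid and fibroblast markers, were present in all groups. None of the listed proximal tubule, fibroblast, myeloid or endothelial markers was called by edgeR in any of the 6 comparisons. The summed level of 6 epithelial markers, 4 keratins with the members EPCAM and CDH1, was 1189 to 1238 CPM (counts scaled to TMM library sizes) in the S100A8 libraries, 1129 to 1180 in the S100A9 libraries and 1205 to 1273 in the S100A8/S100A9 libraries, against 1202 to 1232 in the control libraries. Of these markers edgeR called only KRT7, in S100A8/S100A9 against S100A9 (log2 difference 0.25, SE 0.05, adjusted p = 0.013). The S100A9 libraries were the lowest in the sum, and its part in the differences given for that arm was not tested.

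In HK-2 cells 43 of the 45 members had enough counts to be tested. The remaining pair, the transcription factors GRHL2 and OVOL1 that maintain epithelial identity in many tissues, had 0 to 2 and 0 to 5 counts per library. A count of 0 allows up to 0.189 CPM (counts scaled to the library total) in the smallest library, a floor for counting error only. In control cells 22 members reached 10 FPKM, 16 lay between 1 and 10 FPKM and 7 lay below 1 FPKM. Within a group the coefficient of variation of a tested member had a median of 6.18% and ran between 1.98% for AFDN and 29.6% for CLDN7.

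**Figure D1:**
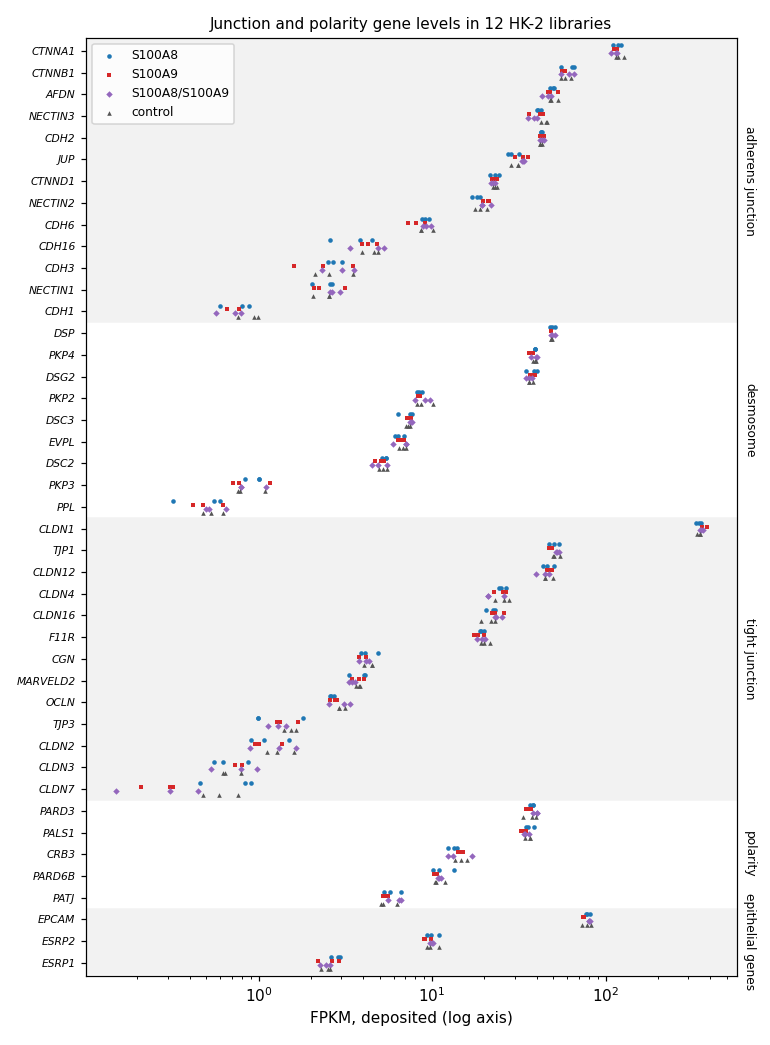
Deposited FPKM (log axis) of the 43 tested members, 1 point per library, coloured by group and sorted by role and control level. CLDN1 stands highest at 345 FPKM and CLDN7 among the lowest at 0.61 FPKM in control cells, and the points of the 4 groups lie over each other for nearly every gene.

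Promoter sequence is shown for 3 claudins that lie far apart in level. CLDN1 was the most abundant member, CLDN16 is its neighbour and CLDN7 was among the least abundant. In GENCODE release 29 on GRCh38 CLDN1 lies at chromosome 3, 190305701 to 190322475, minus strand, and CLDN16 at chromosome 3, 190322541 to 190412143, plus strand, so that the genes start head to head with 65 bases between them. The sequences are RefSeq windows on GRCh38.p14, read 5′ to 3′ on the strand of the gene, of 250 bases before and 50 bases after a transcript start. Capitals mark the motif CAGGTG or its reverse complement CACCTG, the E-box that Snail and ZEB repressors are known to bind in the promoter of E-cadherin.
CLDN1, chr3:190322397-190322696, minus strand: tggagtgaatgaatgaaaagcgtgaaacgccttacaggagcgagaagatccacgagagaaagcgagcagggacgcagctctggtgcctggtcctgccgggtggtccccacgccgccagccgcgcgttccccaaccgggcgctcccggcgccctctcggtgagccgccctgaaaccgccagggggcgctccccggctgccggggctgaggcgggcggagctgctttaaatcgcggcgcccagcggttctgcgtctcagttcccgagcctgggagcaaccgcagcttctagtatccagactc
CLDN16, chr3:190387913-190388212, plus strand: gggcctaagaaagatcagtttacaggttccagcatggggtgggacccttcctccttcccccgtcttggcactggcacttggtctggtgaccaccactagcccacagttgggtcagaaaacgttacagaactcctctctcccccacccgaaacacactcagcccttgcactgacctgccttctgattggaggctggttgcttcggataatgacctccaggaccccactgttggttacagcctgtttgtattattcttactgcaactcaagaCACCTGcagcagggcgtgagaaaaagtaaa
CLDN7, chr17:7262429-7262728, minus strand: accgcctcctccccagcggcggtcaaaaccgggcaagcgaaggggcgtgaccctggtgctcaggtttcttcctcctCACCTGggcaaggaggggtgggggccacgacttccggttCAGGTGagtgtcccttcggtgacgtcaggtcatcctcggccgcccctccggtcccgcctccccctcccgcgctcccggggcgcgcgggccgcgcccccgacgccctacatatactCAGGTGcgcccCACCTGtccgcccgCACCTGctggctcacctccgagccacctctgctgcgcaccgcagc
The CLDN1 window spans the annotated start of CLDN16 and holds 0 matches, the CLDN16 window at a start further inside that gene holds 1, and the CLDN7 window holds 5. RefSeq gives 2 windows each for CLDN16 and CLDN7, and the other window of each gene, not shown, holds 0 matches. That other CLDN16 window, chr3:190290111-190290410, lies at lower coordinates than the whole of CLDN1. From that start the 2 genes would not be head to head. Over all 35116 windows of this length, 20.6% held at least 1 match on either strand and 0.094% held 5 or more. Windows were given for 27 members, 42 windows in all, of which 14 (33.3%) held the motif. A CRB3 window also held 5 matches (14.7 FPKM in control cells), and the AFDN window held 4 (49.6 FPKM). Both windows of CLDN2 (1.33 FPKM) held 0. A relation of match number to level was not tested. A match describes these letters and is not evidence of binding.

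Cadherin transcripts were mostly those of N-cadherin. CDH2 averaged 42.6 ± 0.334 FPKM after S100A8, 43.4 ± 1.44 after S100A9 and 43.1 ± 1.22 after S100A8/S100A9, against 42.2 ± 0.841 in control cells (SD, n = 3 each). CDH6, a cadherin of the developing kidney and of renal tubule, stood at 9.09 FPKM in control cells, kidney-specific CDH16 at 4.49, CDH3 (P-cadherin) at 2.72 and CDH1 (E-cadherin) at 0.897. CDH2 made up 72.3 ± 1.34% of the summed FPKM of these 5 cadherins after S100A8, 73.4 ± 1.59% after S100A9 and 71.1 ± 1.00% after S100A8/S100A9, against 71.0 ± 1.59% in control cells (SD, n = 3 each). CDH1 gave 1.29 ± 0.25%, 1.24 ± 0.13% and 1.15 ± 0.17% in the same 3 treated groups, against 1.51 ± 0.21% in control cells. Per length, CDH2 exceeded CDH1 in all 12 libraries, by 43.6-fold to 73.6-fold.

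Among the 7 listed claudins CLDN1, a sealing claudin, gave 78.1 ± 0.58% of the summed FPKM after S100A8, 78.9 ± 0.67% after S100A9 and 79.3 ± 0.31% after S100A8/S100A9, against 78.2 ± 0.53% in control cells (SD, n = 3 each). CLDN12 stood at 46.4, CLDN4 at 25.6 and CLDN16, which is known for magnesium handling in the thick ascending limb, at 21.3 FPKM in control cells. CLDN2, the cation pore of the proximal tubule, had 1.33 FPKM, CLDN3 0.683 and CLDN7 0.610. In control cells the 4 leading claudins of these 7 by mean level were CLDN1, CLDN12, CLDN4 and CLDN16. CLDN11, outside these 7, had 93.7 FPKM. After S100A8/S100A9 the mean of CLDN16 stood above that of CLDN4 (23.92 against 22.55 FPKM), but not in replicate 2 (23.29 against 25.84 FPKM). CLDN16 was also above CLDN4 in S100A9 replicate 1 (26.09 against 22.81 FPKM).

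**Figure D2:**
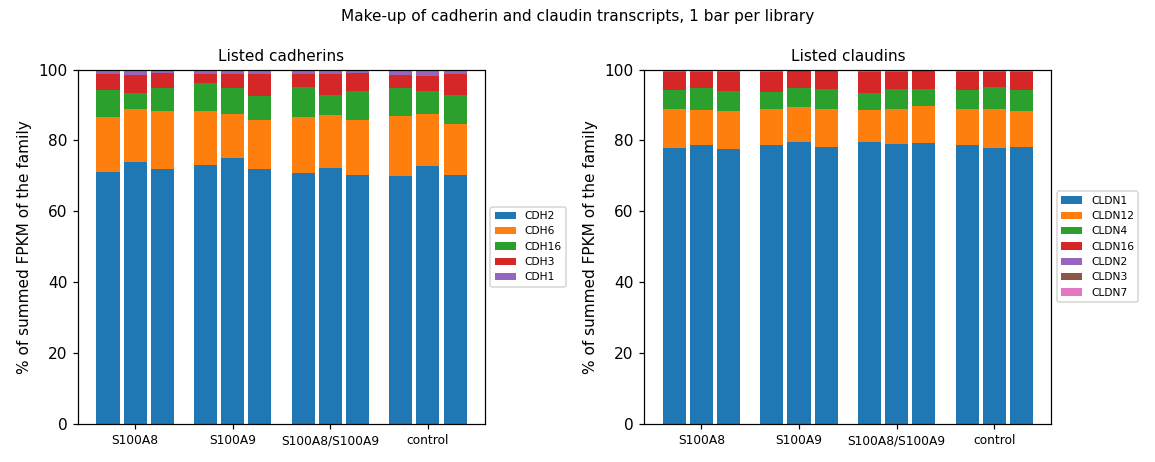
Share of summed FPKM (%) taken by each of the 5 listed cadherins (left) and 7 listed claudins (right), 1 bar per library. CDH2 holds about 71% to 73% and CLDN1 about 78% to 79% of its family in each group mean, and the bars of the 4 groups look alike.

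Among the other adherens junction members the catenins led. CTNNA1, which links cadherins to actin, stood at 119.9 FPKM in control cells, CTNNB1 (beta-catenin) at 58.97, CTNND1 (p120 catenin) at 23.02 and JUP (plakoglobin, shared with desmosomes) at 30.4. Afadin, AFDN, had 49.6 FPKM, and its partners of the nectin family had 44.7 (NECTIN3), 19.04 (NECTIN2) and 2.39 FPKM (NECTIN1). In desmosomes, desmoplakin (DSP), the link to keratin filaments, stood at 48.7 FPKM in control cells, PKP4 at 39.2 and the desmosomal cadherin DSG2 at 36.8, whereas the desmosomal cadherins DSC3 and DSC2 had 7.26 and 5.21. PKP2 and EVPL (envoplakin) had 8.95 and 6.80 FPKM, and PKP3 and PPL (periplakin) only 0.877 and 0.543.

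Tight junction scaffolds differed widely in level. TJP1, which encodes ZO-1, had 51.6 FPKM in control cells, while TJP3 (ZO-3) had 1.53 and CGN (cingulin) 4.36. F11R, the adhesion molecule JAM-A, had 20.2 FPKM, OCLN (occludin) 2.99 and MARVELD2 (tricellulin) 3.76. Of the polarity genes, PARD3 had 36.7 and PARD6B 10.9 FPKM, and the Crumbs complex members PALS1, CRB3 and PATJ had 35.8, 14.7 and 5.52. EPCAM, an adhesion molecule of epithelia, had 77.8 FPKM, and the epithelial splicing regulators ESRP2 and ESRP1 had 9.997 and 2.45. The deposited FPKM per CPM of a gene varied between libraries, by at most 2.29-fold (CLDN7) and by over 1.2-fold in 11 members, so groups were compared on counts and CPM. Levels in bulk RNA do not tell fewer cells from less RNA per cell.

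S100A9 was compared with control to ask whether this protein alone shifted the junction genes. No member passed edgeR's quasi-likelihood test at an adjusted p of 0.05, while 20 of 13512 genes did (0.148%), and DESeq2 and limma also called 0 members. At an unadjusted p under 0.05 there were 7 members (16.3%) against 5.85% of all genes: CDH6, TJP1, PATJ and CLDN7 had negative differences, and CLDN1, JUP and CLDN16 positive ones. The 3 S100A9 libraries lay outside the range of the 3 control libraries for 7 members (16.3%), against 12% of all genes. Without the sparse CLDN7, which entered the test through the groups where it was higher, both counts were 6 of 42 (14.3%). Of these 7, CLDN1 was above the controls, as were 6.25% of all genes, and CDH6, PKP4, OCLN, TJP1, TJP3 and CLDN7 were below them, as were 5.77% of all genes. The fitted log2 difference was above 0 for 13 members and below 0 for 30, with a median of -0.03, whereas 49.9% of all genes lay above 0 with a median of -0.0001. The median absolute log2 difference was 0.07, against 0.06 over all genes. For 33 of 43 members the whole 95% interval lay within 0.32 of 0 on the log2 scale. Such an interval is called narrow here, a term that depends on its position as well as its width.

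After S100A8 the median absolute log2 difference of the members was 0.04, against 0.05 over all genes. No member passed edgeR's adjusted test, against 1 gene of all those tested (0.0074%), and DESeq2 and limma called 0 as well. A single member, TJP3, had an unadjusted p under 0.05 (2.33%, against 3.53% of all genes). Libraries did not overlap for 4 members (9.3%, against 8.54% of all genes): NECTIN2, OCLN and TJP3 were below control and ESRP1 was above. The median log2 difference was -0.01, with 15 members above 0 and 28 below (50.2% of all genes above 0), and 30 intervals were narrow.

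S100A8/S100A9 gave 0 adjusted calls among the members by edgeR, DESeq2 and limma, and edgeR called no gene in the whole table (0.0%). Unadjusted p fell under 0.05 for JUP, CLDN16 and CLDN4, or 6.98% of members against 5.6% of all genes. Libraries did not overlap for 6 members (14.0%, against 10.7% of all genes): JUP, DSC3, CLDN1 and CLDN16 were above control, and AFDN and MARVELD2 were below. The median log2 difference was -0.01, with 18 members above 0 and 25 below (49.7% of all genes above 0), and 31 intervals were narrow. The 3 comparisons with control share the same control libraries, so their values for a gene are not independent. The labels do not say that libraries of a group came from separate cultures, and p-values then measure only the spread between these libraries, which may be technical.

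**Figure D3:**
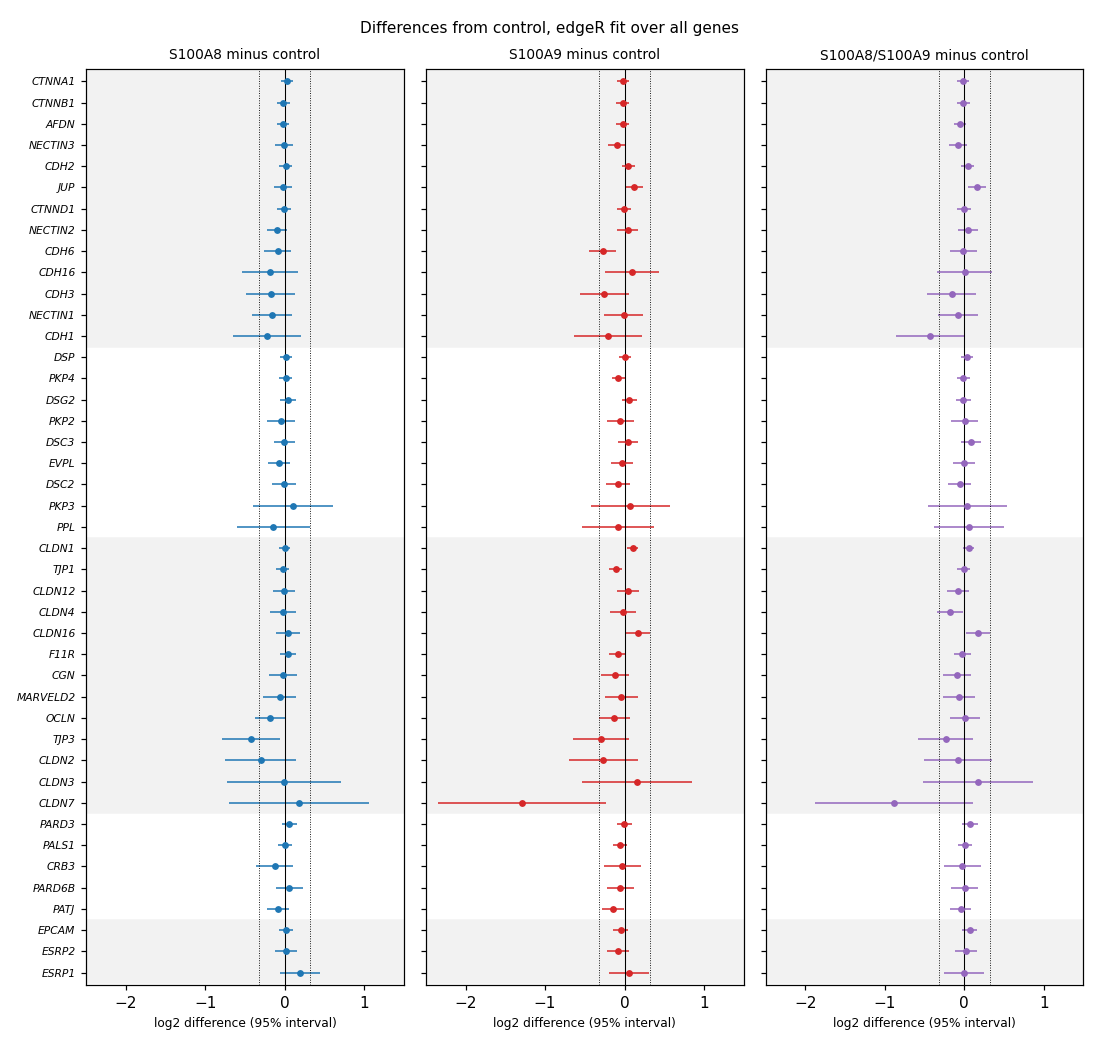
Fitted log2 difference from control (x axis) with its 95% interval for each tested member after S100A8, S100A9 and S100A8/S100A9, by role. Dotted lines mark 0.32 on either side of 0. Most points sit near 0 with the interval inside the lines, and the widest intervals belong to low-abundance members such as CLDN7, CLDN3 and PPL.

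CDH6 had the smallest p of the set after S100A9. CDH6 measured 44.1, 39.5 and 43.3 CPM in the S100A8 libraries, 42.2, 32.9 and 36.7 in the S100A9 libraries and 47.9, 40.5 and 45.1 in the S100A8/S100A9 libraries, against 48.8, 42.8 and 43.5 in the control libraries. The S100A9 values were all below the control values, and the S100A8 and S100A8/S100A9 values overlapped the controls. The log2 difference was -0.27 (SE 0.08, 95% interval -0.45 to -0.10, edgeR adjusted p = 0.405) after S100A9, -0.09 (95% interval -0.26 to 0.08) after S100A8 and -0.01 (95% interval -0.18 to 0.15) after S100A8/S100A9. In every group replicate 1 was the highest and replicate 2 the lowest. CDH6 lies on chromosome 5, 31193750 to 31329146, plus strand.

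N-cadherin overlapped across the arms. CDH2 measured 165, 169 and 164 CPM in the S100A8 libraries, 172, 174 and 164 in the S100A9 libraries and 175, 168 and 165 in the S100A8/S100A9 libraries, against 164, 167 and 163 in the control libraries. S100A8/S100A9 replicate 1 was the highest library and control replicate 3 the lowest. The log2 differences of CDH2 from control were 0.01 (95% interval -0.07 to 0.10) after S100A8, 0.05 (95% interval -0.03 to 0.13) after S100A9 and 0.04 (95% interval -0.04 to 0.12) after S100A8/S100A9. All 3 intervals were narrow.

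E-cadherin had only 38 to 76 counts per library. CDH1 measured 3.40, 3.66 and 2.55 CPM in the S100A8 libraries, 3.10, 3.09 and 3.57 in the S100A9 libraries and 3.35, 2.99 and 1.99 in the S100A8/S100A9 libraries, against 4.43, 3.82 and 3.002 in the control libraries. Control replicate 1 was the highest library and S100A8/S100A9 replicate 3 the lowest, and the groups overlapped. On the log2 scale the difference was -0.23 (95% interval -0.66 to 0.21) after S100A8, -0.20 (95% interval -0.63 to 0.22) after S100A9 and -0.43 (SE 0.21, 95% interval -0.86 to 0.0026, edgeR adjusted p = 0.891) after S100A8/S100A9. The log2 ratio of CDH1 to CDH2 in CPM was -5.60, -5.53 and -6.00 in the S100A8 libraries, -5.80, -5.82 and -5.52 in the S100A9 libraries and -5.71, -5.81 and -6.38 in the S100A8/S100A9 libraries, against -5.21, -5.45 and -5.76 in the control libraries. Control replicate 3 fell inside the treated ranges, so the groups overlapped in this ratio as well. CDH3, which neighbours CDH1 14.6 kb away on chromosome 16, differed from control by -0.17, -0.25 and -0.16 on the log2 scale after S100A8, S100A9 and S100A8/S100A9, with intervals beyond 0.32 in each.

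Plakoglobin showed its largest values in the 2 arms that held S100A9. JUP measured 95.2, 88.3 and 86.4 CPM in the S100A8 libraries, 105, 91.9 and 102 in the S100A9 libraries and 106, 99.5 and 100.5 in the S100A8/S100A9 libraries, against 93.3, 85.4 and 95.5 in the control libraries. The S100A8/S100A9 libraries were all above the controls, whereas S100A9 replicate 2 lay within the control range. Fitted log2 differences were 0.16 (SE 0.05, 95% interval 0.05 to 0.27, edgeR adjusted p = 0.798) after S100A8/S100A9, 0.12 (SE 0.05, 95% interval 0.01 to 0.23, edgeR adjusted p = 0.801) after S100A9 and -0.02 (95% interval -0.14 to 0.09) after S100A8. The other catenins stayed close to control: over the 3 arms, log2 differences ran between -0.02 and 0.03 for CTNNA1, CTNNB1 and CTNND1. JUP lies on chromosome 17, 41754604 to 41786931, minus strand.

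NECTIN2 was named for the contrast between arms. NECTIN2 measured 39.3, 39.6 and 39.1 CPM in the S100A8 libraries, 44.9, 40.04 and 44.8 in the S100A9 libraries and 46.1, 39.6 and 44.1 in the S100A8/S100A9 libraries, against 42.6, 41.1 and 42.4 in the control libraries. The 3 S100A8 libraries were below all controls, and the S100A9 and S100A8/S100A9 libraries overlapped them. The log2 difference from control was -0.10 (95% interval -0.23 to 0.03) after S100A8, 0.04 (95% interval -0.09 to 0.17) after S100A9 and 0.04 (95% interval -0.09 to 0.17) after S100A8/S100A9. NECTIN3, NECTIN1 and AFDN differed from control by between -0.16 and -0.01 on the log2 scale over the 3 arms.

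Desmosome genes stayed close to control, with overlapping libraries for desmoplakin. DSP measured 436, 469 and 452 CPM in the S100A8 libraries, 445, 450.3 and 448 in the S100A9 libraries and 471, 446 and 454 in the S100A8/S100A9 libraries, against 442, 446 and 453 in the control libraries. The log2 differences of DSP were 0.02 (95% interval -0.06 to 0.09) after S100A8, 0.0035 (95% interval -0.07 to 0.08) after S100A9 and 0.03 (95% interval -0.04 to 0.11) after S100A8/S100A9. Over the 9 desmosome members the median log2 difference was -0.0033 after S100A8, -0.03 after S100A9 and 0.0066 after S100A8/S100A9. Neither a desmosomal cadherin nor a plakophilin reached an unadjusted p under 0.05 against control in any arm, and 7 of the 9 intervals were narrow in each. The members outside that range were PKP3 and PPL, the 2 least abundant desmosome genes.

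TJP1 was lower in all S100A9 libraries than in the controls without passing the test. TJP1 measured 259, 283 and 276 CPM in the S100A8 libraries, 248, 265 and 256 in the S100A9 libraries and 273, 281 and 276 in the S100A8/S100A9 libraries, against 274, 285 and 273 in the control libraries. Replicate 2 was the highest library in every group. As a log2 difference this was -0.11 (SE 0.04, 95% interval -0.20 to -0.03, edgeR adjusted p = 0.639) after S100A9, -0.02 (95% interval -0.10 to 0.06) after S100A8 and -0.0038 (95% interval -0.09 to 0.08) after S100A8/S100A9. TJP1 lies on chromosome 15, 29699367 to 29968865, minus strand.

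TJP3, a scaffold of lower abundance, was the 1 member with an unadjusted p under 0.05 after S100A8. TJP3 measured 3.04, 3.02 and 4.005 CPM in the S100A8 libraries, 3.98, 3.55 and 3.51 in the S100A9 libraries and 4.42, 3.41 and 3.61 in the S100A8/S100A9 libraries, against 4.26, 4.26 and 4.99 in the control libraries. The S100A8 and S100A9 values were all below the controls, and S100A8/S100A9 replicate 1 reached the control range. The difference in log2 units was -0.42 (SE 0.18, 95% interval -0.78 to -0.06, edgeR adjusted p = 1.0) after S100A8, -0.29 (95% interval -0.65 to 0.06) after S100A9 and -0.23 (95% interval -0.58 to 0.11) after S100A8/S100A9. These intervals are wide, and the gene had few counts.

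Occludin was below control in the S100A8 and S100A9 libraries. OCLN measured 16.7, 16.2 and 15.96 CPM in the S100A8 libraries, 16.1, 17.1 and 17.5 in the S100A9 libraries and 15.7, 20.9 and 19.4 in the S100A8/S100A9 libraries, against 18.03, 17.99 and 19.4 in the control libraries. S100A8/S100A9 replicate 1 was the lowest library and replicate 2 of the same group the highest. The log2 difference was -0.18 (SE 0.09, 95% interval -0.38 to 0.01, edgeR adjusted p = 1.0) after S100A8, -0.13 (95% interval -0.32 to 0.07) after S100A9 and 0.01 (95% interval -0.18 to 0.20) after S100A8/S100A9. MARVELD2, 48.0 kb from OCLN on chromosome 5, differed by -0.06, -0.04 and -0.07 on the log2 scale after S100A8, S100A9 and S100A8/S100A9.

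The abundant CLDN1 gave one of the narrowest intervals in the set. CLDN1 measured 1214, 1182 and 1148 CPM in the S100A8 libraries, 1245, 1330 and 1236 in the S100A9 libraries and 1207, 1255 and 1228 in the S100A8/S100A9 libraries, against 1196, 1193 and 1161 in the control libraries. The S100A9 and S100A8/S100A9 libraries were all above the controls, while the S100A8 libraries overlapped them. On the log2 scale the difference was 0.10 (SE 0.04, 95% interval 0.03 to 0.17, edgeR adjusted p = 0.617) after S100A9, 0.06 (95% interval -0.02 to 0.13) after S100A8/S100A9 and -0.0028 (95% interval -0.08 to 0.07) after S100A8.

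CLDN16, whose annotated start lies inside the CLDN1 window shown earlier, had positive differences in the same arms. CLDN16 measured 75.5, 66.4 and 73.2 CPM in the S100A8 libraries, 85.7, 73.2 and 75.1 in the S100A9 libraries and 83.7, 76.4 and 75.8 in the S100A8/S100A9 libraries, against 74.8, 62.1 and 71.7 in the control libraries. The S100A8/S100A9 libraries were above the controls, and S100A9 replicate 2 overlapped them. Fitted log2 differences were 0.18 (SE 0.07, 95% interval 0.03 to 0.33, edgeR adjusted p = 0.852) after S100A8/S100A9, 0.16 (SE 0.07, 95% interval 0.01 to 0.32, edgeR adjusted p = 0.817) after S100A9 and 0.04 (95% interval -0.11 to 0.20) after S100A8. The level of CLDN16 was far below that of CLDN1 in every library, at 19.0 to 26.1 FPKM.

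CLDN4 had the lowest fitted value of the more abundant claudins after S100A8/S100A9. CLDN4 measured 46.4, 50.1 and 45.9 CPM in the S100A8 libraries, 43.6, 50.2 and 48.3 in the S100A9 libraries and 39.6, 48.8 and 39.5 in the S100A8/S100A9 libraries, against 43.9, 51.7 and 49.00 in the control libraries. S100A8/S100A9 replicates 1 and 3 were the lowest of all libraries, and replicate 2 of that group lay within the control range. Replicate 2 was also the highest library of every group. As a log2 difference this was -0.18 (SE 0.08, 95% interval -0.35 to -0.02, edgeR adjusted p = 0.859) after S100A8/S100A9, -0.02 (95% interval -0.19 to 0.14) after S100A9 and -0.02 (95% interval -0.19 to 0.14) after S100A8. CLDN3, 29.3 kb away on chromosome 7, had log2 differences of -0.01, 0.15 and 0.17 after S100A8, S100A9 and S100A8/S100A9, from a level below 1 FPKM in control cells.

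CLDN7, a sealing claudin, had few counts. There were 13, 9 and 12 counts in the S100A8 libraries, 5, 6 and 2 in the S100A9 libraries and 10, 3 and 5 in the S100A8/S100A9 libraries, against 12, 10 and 8 in the control libraries. Only 5 of the 12 libraries reached 10 counts, so the gene entered the test through the groups where it was higher, and its counts are given as a description. Its exons share 10.8% of their bases with AC003688.1 on the same strand and 1.52% with ELP5 on the opposite strand (30.4 CPM in control cells), and the strand setting of the authors' counting is not given in the sources used here.

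CLDN2 did not separate the groups. CLDN2 measured 2.61, 3.14 and 3.60 CPM in the S100A8 libraries, 3.98, 2.78 and 2.91 in the S100A9 libraries and 4.46, 3.83 and 2.62 in the S100A8/S100A9 libraries, against 4.67, 3.26 and 3.62 in the control libraries. Control replicate 1 was the highest library and S100A8 replicate 1 the lowest, and the groups overlapped. The log2 difference was -0.30 (95% interval -0.75 to 0.14) after S100A8, -0.27 (95% interval -0.70 to 0.17) after S100A9 and -0.08 (95% interval -0.51 to 0.35) after S100A8/S100A9, intervals that reach well beyond 0.32.

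CLDN12, a claudin linked to calcium permeability, overlapped across the groups. CLDN12 measured 175, 151 and 161 CPM in the S100A8 libraries, 162, 168 and 173 in the S100A9 libraries and 139.6, 159 and 167 in the S100A8/S100A9 libraries, against 158, 175 and 158 in the control libraries. S100A8/S100A9 replicate 1 was the lowest library. On the log2 scale the difference was -0.01 (95% interval -0.15 to 0.13) after S100A8, 0.04 (95% interval -0.10 to 0.18) after S100A9 and -0.07 (95% interval -0.21 to 0.06) after S100A8/S100A9. Its exons share 5.15% of their bases with GTPBP10 (70.4 CPM in control cells), so part of its counts may belong to that gene.

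JAM-A showed small differences. F11R measured 86.7, 88.7 and 92.3 CPM in the S100A8 libraries, 87.4, 79.2 and 78.7 in the S100A9 libraries and 89.2, 84.2 and 83.05 in the S100A8/S100A9 libraries, against 89.7, 82.8 and 88.1 in the control libraries. S100A9 replicates 2 and 3 were the lowest libraries. Fitted log2 differences were -0.09 (95% interval -0.19 to 0.02) after S100A9, 0.04 (95% interval -0.07 to 0.14) after S100A8 and -0.02 (95% interval -0.13 to 0.08) after S100A8/S100A9. F11R is uncertain in level, because 36.6% of its exon bases are shared with AL591806.3 on the same strand, which had 18.2 CPM in control cells. Cingulin differed from control by -0.03, -0.12 and -0.10 on the log2 scale after S100A8, S100A9 and S100A8/S100A9.

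**Figure D4:**
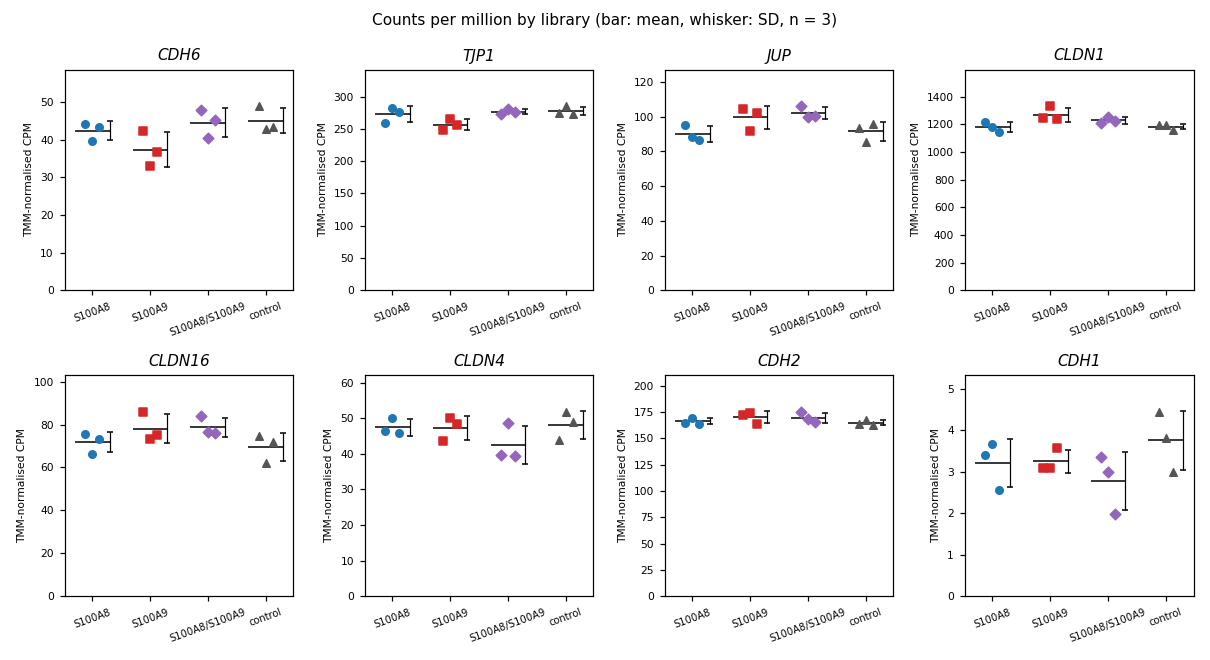
TMM-scaled CPM per library for CDH6, TJP1, JUP, CLDN1, CLDN16, CLDN4, CDH2 and CDH1 in the 4 groups, with the mean (bar) and SD (whisker, n = 3). CDH6 and TJP1 sit below the controls in all S100A9 libraries, CLDN1 sits above them after S100A9 and S100A8/S100A9, and CDH2 and CDH1 overlap across groups.

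The polarity genes kept close to control in all arms. All 5 intervals were narrow after S100A9 and after S100A8/S100A9, and 4 of 5 after S100A8. After S100A9 all 5 fitted differences were below 0 (median -0.05), where 49.9% of all genes lay above 0. After S100A8 and after S100A8/S100A9, 3 lay above 0 and 2 below (50.2% and 49.7% of all genes above 0). In S100A8/S100A9 against S100A9, which uses the same S100A9 libraries, all 5 lay above 0 (median 0.07, with 49.4% of all genes above 0). PARD3 measured 115, 123 and 122 CPM in the S100A8 libraries, 119, 111 and 115 in the S100A9 libraries and 123, 120.3 and 119 in the S100A8/S100A9 libraries, against 122, 114 and 108 in the control libraries. The groups overlapped, and the difference on the log2 scale of this Par complex scaffold was 0.06 (95% interval -0.04 to 0.15) after S100A8, -0.0018 (95% interval -0.10 to 0.10) after S100A9 and 0.07 (95% interval -0.02 to 0.17) after S100A8/S100A9. CRB3 (the Crumbs protein of epithelia) measured 10.4, 11.1 and 12.4 CPM in the S100A8 libraries, 12.4, 11.7 and 12.1 in the S100A9 libraries and 14.1, 10.4 and 11.6 in the S100A8/S100A9 libraries, against 13.1, 11.2 and 12.6 in the control libraries. Its libraries overlapped too, with log2 differences of -0.13 (95% interval -0.36 to 0.11), -0.03 (95% interval -0.26 to 0.20) and -0.02 (95% interval -0.25 to 0.20) after S100A8, S100A9 and S100A8/S100A9. PATJ had a log2 difference of -0.15 (SE 0.07, 95% interval -0.29 to -0.01, edgeR adjusted p = 0.81) after S100A9, with overlapping libraries, and PALS1 and PARD6B differed by -0.06 and -0.05 in that arm.

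Among the epithelial genes ESRP1 was highest after S100A8. ESRP1 measured 9.12, 10.1 and 9.17 CPM in the S100A8 libraries, 7.31, 9.98 and 8.45 in the S100A9 libraries and 7.71, 8.92 and 8.22 in the S100A8/S100A9 libraries, against 8.40, 8.53 and 7.99 in the control libraries. The S100A8 libraries were all above the controls, and S100A9 replicate 2 reached the S100A8 range. As a log2 difference this was 0.19 (SE 0.12, 95% interval -0.06 to 0.44, edgeR adjusted p = 1.0) after S100A8, 0.05 (95% interval -0.20 to 0.30) after S100A9 and -0.01 (95% interval -0.26 to 0.25) after S100A8/S100A9. EPCAM measured 124, 120.0 and 118 CPM in the S100A8 libraries, 116, 115 and 116 in the S100A9 libraries and 125, 124 and 127 in the S100A8/S100A9 libraries, against 121, 126 and 112 in the control libraries. Control replicate 3 was its lowest library and S100A8/S100A9 replicate 3 its highest. The log2 differences of EPCAM from control were 0.01, -0.05 and 0.07 after S100A8, S100A9 and S100A8/S100A9. ESRP2 differed by 0.01, -0.08 and 0.02, and 2.68% of its exon bases are shared with NFATC3 on the opposite strand.

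The arms were also compared directly, which leaves out the control libraries but uses the same treated libraries again. Between S100A8/S100A9 and S100A9, edgeR called 0 members and 34 of all genes (0.252%), and 3 members had an unadjusted p under 0.05 (6.98%, against 7.15% of all genes). These were CDH6, with a log2 difference of 0.26 (SE 0.08, 95% interval 0.09 to 0.43, edgeR adjusted p = 0.441), TJP1 with 0.11 (SE 0.04, 95% interval 0.03 to 0.19, edgeR adjusted p = 0.542) and EPCAM with 0.11 (SE 0.04, 95% interval 0.03 to 0.20, edgeR adjusted p = 0.576). Libraries did not overlap for 6 members (14.0%, against 12.5% of all genes), and TJP1, PARD3, PARD6B, PALS1, EPCAM and ESRP2 were all higher after S100A8/S100A9 (5.94% of all genes were higher without overlap and 6.53% lower). The lowest p among the negative differences belonged to CLDN4, at -0.16 (95% interval -0.32 to 0.01), and CLDN12, at -0.12 (95% interval -0.25 to 0.02). In this contrast 30 members lay above 0 and 13 below (49.4% of all genes above 0), with a median of 0.02. However, the median was -0.0046 without S100A8/S100A9 replicate 1 and 0.0547 without replicate 2 of that group.

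For S100A8/S100A9 set against S100A8, edgeR called 0 members and 0 of all genes (0.0%), with 3 members at an unadjusted p under 0.05 (6.98%, against 4.43% of all genes). JUP differed by 0.18 (SE 0.05, 95% interval 0.07 to 0.29, edgeR adjusted p = 0.98) and NECTIN2 by 0.14 (95% interval 0.01 to 0.27), and the sparse CLDN7 was also among the 3. JUP and CLDN16 were higher and CLDN7 and ESRP1 lower in all S100A8/S100A9 libraries than in all S100A8 libraries, 4 members (9.3%) against 9.0% of all genes. Without CLDN7 these counts were 2 (4.76%) and 3 (7.14%) of 42. In all, 26 members lay above 0 and 17 below, against 49.3% of all genes above 0. CLDN4 and ESRP1 had log2 differences of -0.16 (95% interval -0.33 to 0.0045) and -0.20 (95% interval -0.44 to 0.05).

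In S100A9 against S100A8, 8 of 43 members had an unadjusted p under 0.05 (18.6%, against 7.0% of all genes). No member passed the adjusted edgeR test, while 25 of all genes did (0.185%). CLDN1 differed by 0.10 (SE 0.04, 95% interval 0.03 to 0.18, edgeR adjusted p = 0.435), JUP by 0.15 (SE 0.05, 95% interval 0.03 to 0.26, edgeR adjusted p = 0.533), F11R by -0.13 (SE 0.05, 95% interval -0.23 to -0.02, edgeR adjusted p = 0.594) and TJP1 by -0.09 (SE 0.04, 95% interval -0.17 to -0.01, edgeR adjusted p = 0.692). The others were CDH6 (-0.19), NECTIN2 (0.14), PKP4 (-0.09) and the sparse CLDN7. Libraries did not overlap for 6 members (14.0%, against 12.5% of all genes): NECTIN2 and CLDN1 were higher after S100A9, and PKP4, CLDN7, PALS1 and EPCAM were lower. Without CLDN7 these counts were 7 (16.7%) and 5 (11.9%) of 42. Here 20 members lay above 0 and 23 below, against 50.2% of all genes above 0. In all 3 direct comparisons DESeq2 and limma called 0 members.

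Other genes of the same structures were counted from lists that hold no member of the set. Of 12 tested adherens junction genes among 18 listed, 22 tight junction genes among 32, 18 polarity genes among 19 and 1 desmosome gene among 6, edgeR called 0 in each of the 6 comparisons. Medians over the adherens junction list were 0.01 after S100A8, 0.03 after S100A9 and 0.07 after S100A8/S100A9 on the log2 scale, and those over the tight junction list were 0.01, -0.004 and 0.02, while all genes had medians of 0.0004, -0.0001 and -0.0005. The smallest unadjusted p among the adherens genes belonged to ZYX (zyxin) and CTNNAL1, with log2 differences of 0.13 (SE 0.05) and 0.10 (SE 0.04) after S100A8/S100A9. Among the tight junction genes it belonged to MAGI1 and LSR, at -0.15 (SE 0.06) and -0.18 (SE 0.08) in S100A9 against S100A8. CLDN11, which is not among the members, was second to CLDN1 among the listed claudins, at 101 ± 11.1 FPKM after S100A8, 111 ± 12.7 after S100A9 and 89.8 ± 10.2 after S100A8/S100A9, against 93.7 ± 6.09 in control cells (SD, n = 3 each). Of 7 further epithelial regulators tested, ELF3, an epithelial transcription factor, passed: it was higher after S100A9 than in control cells, by 0.32 on the log2 scale (SE 0.07, edgeR adjusted p = 0.028), and it was also called in both direct comparisons that include S100A9. Of 11 tested mesenchymal genes 0 were called in any comparison, with control levels of 2499 FPKM for FN1 (fibronectin), 417 for VIM (vimentin), 70.1 for SNAI2 and 9.80 for ZEB1.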

How the data were processed

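RNA from 12 libraries of HK-2 cells was compared, 3 for each of the groups S100A8, S100A9, S100A8/S100A9 and control, taken from the labels. Per the file headers the deposited table holds expected counts (estimated reads, 11.99% of entries not whole) and FPKM, the authors' value scaled to length and depth. Neither aligner, counter, strand setting nor annotation is stated in the labels or headers. Mouse builds, GRCm38 and mm10, stand in the submitters' processing notes although the gene IDs are human Ensembl IDs, so the build behind the counts is not known. Coordinates come from GENCODE release 29 on GRCh38, matched by Ensembl ID, and promoter sequences from RefSeq on GRCh38.p14. Of 20286 IDs, 20228 were named and 58 were not.

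After rounding, expected counts went into edgeR 4.0.16 (R 4.3.3): filterByExpr (minimum count 10) kept 13512 genes, libraries were scaled by TMM, and a robust quasi-likelihood model had 1 coefficient for each group over the 12 libraries (8 residual degrees of freedom, biological coefficient of variation 4.65%). Two-sided p-values were adjusted by Benjamini-Hochberg across the genes tested, separately for each of 6 comparisons, at a threshold of 0.05. Levels are FPKM between genes and TMM-scaled CPM between groups. Named with values in every library were, per comparison, the 2 members of smallest p in each direction (mean CPM 1 or more), plus 10 members of central role in any case; other named genes were chosen after their values were seen. The members and lists were chosen with earlier results of these data known. A listed marker gene is not reported here. Alternatives were a block for the replicate number, scaling by DESeq2 size factors, dropping the filter, the Wald test (DESeq2 1.42.0), fitting the 6 compared libraries alone, leaving out each library and, added after seeing the data, limma 3.58.1 on log2(FPKM + 1). Within a group, library pairs differed by more than sampling noise (chi-square per degree of freedom 2.35 to 5.44), so each library counted as 1 sample.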

Additional observations from a re-analysis of the deposited data

How the results depend on the processing

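No member passed the threshold under any alternative except the replicate block, which called 1 member, CDH6, in S100A9 against control (-0.27, SE 0.06, edgeR adjusted p = 0.0193) and in S100A8/S100A9 against S100A9 (0.26, SE 0.06, edgeR adjusted p = 0.0188). Over the alternatives that adjusted p ran between 0.0193 and 1.0, and between 0.0188 and 0.916. The labels do not say whether the replicate numbers pair the libraries. Deviations of same-numbered libraries correlated across genes at -0.07 to 0.15, against -0.16 to 0.10 for different numbers (medians 0.05 and -0.01). These were deviations from group means, which sum to 0 over the 3 libraries of a group. Positive values for same numbers thus push those for different numbers below 0, which are no independent baseline. Pairs of replicate 2 were all positive, at 0.0553 to 0.1514, whereas pairs of replicate 1 and of replicate 3 had both signs. Whether the numbers mark a shared batch was not tested. Leaving out 1 library at a time gave 0 to 0 members called in each comparison. The median log2 difference then ran between -0.0337 and 0.0034 for S100A8 against control, -0.0462 and -0.0288 for S100A9 against control, -0.042 and -0.0023 for S100A8/S100A9 against control, -0.0046 and 0.0547 for S100A8/S100A9 against S100A9, 0.0057 and 0.0293 for S100A8/S100A9 against S100A8, and -0.0224 and 0.0076 for S100A9 against S100A8. The extremes of -0.0337, -0.042 and -0.0046 came without S100A8 replicate 2 and, for the other pair, without S100A8/S100A9 replicate 1. The extreme of 0.0547 came without S100A8/S100A9 replicate 2. Of 258 pairs of member and comparison, 129 changed sign under at least 1 alternative.

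Counts over all genes moved more. S100A9 against control had 20 calls, 42 with the block, 12 by limma and 11 to 22 without a library. S100A8/S100A9 against S100A9 had 34, with 71, 13 and 14 to 31, and S100A9 against S100A8 had 25, with 69, 10 and 14 to 24. S100A8 against control had 1 call, 2 with the block, 0 by limma or on the 6 libraries alone and 0 to 2 without a library. S100A8/S100A9 against control had 0, with 2 by the block, 1 by DESeq2, 2 on the 6 libraries alone and 0 to 2 without a library, and S100A8/S100A9 against S100A8 had 0, with 2 by DESeq2. Libraries whose removal moved these counts by over 1.5 times were, in S100A9 against control, control replicates 1 (12 calls) and 2 (11) and S100A9 replicate 3 (13). In S100A8/S100A9 against S100A9 they were S100A9 replicates 2 (16) and 3 (15) and S100A8/S100A9 replicates 1 (14) and 3 (19), and in S100A9 against S100A8 they were S100A8 replicate 2 (14) and S100A9 replicate 3 (14). In S100A8 against control, removing control replicate 1 gave 2 calls, and removing control replicate 2 or S100A8 replicate 1 or 2 gave 0; in S100A8/S100A9 against control, removing control replicate 1 gave 2. The cause was not tested. The intervals of CLDN7, CLDN3, PKP3, PPL, CDH1, CDH3, CDH16, TJP3 and CLDN2 reach beyond 0.32 on the log2 scale in every comparison, and depth limits CLDN7, with 2 to 13 counts per library.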

Other observations

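Gap junction genes, which couple neighbouring cells through connexin channels, were listed apart from the adhesive and sealing junctions. Of 13 listed genes 7 could be tested and edgeR called 0 in each of the 6 comparisons. At an unadjusted p under 0.05 there was 1, PANX1 in S100A9 against S100A8. GJC1 (connexin 45) led with 24.7 ± 0.93 FPKM after S100A8, 23.9 ± 1.63 after S100A9 and 27.4 ± 1.16 after S100A8/S100A9, against 25.8 ± 1.21 in control cells (SD, n = 3 each). GJA1 (connexin 43) stood at 2.64 ± 0.13, 2.53 ± 0.37 and 2.48 ± 0.22 FPKM in those treated groups, against 2.68 ± 0.36 in control cells.

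Some members followed the replicate number across all 4 groups. CDH6, CDH16 and CLDN16 were highest in replicate 1 of every group (6.98% of the 43 members, against 2.63% of all genes), and CDH3 and MARVELD2 were lowest there (4.65%, against 2.86%). CDH6 and CDH16 were also lowest in replicate 2 of every group (4.65%, against 4.79%). DSG2, TJP1, CLDN3, CLDN4, ESRP1 and ESRP2 were highest in replicate 2 of every group, 6 of 43 members (14.0%) against 4.41% of all genes. CDH2 and CLDN3 were lowest in replicate 3 of every group (4.65%, against 0.881%), and 0 members were highest there, against 0.94% of all genes. The labels do not say what the replicate number stands for.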
